A study of Mus musculus with 8 samples.

Results

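The immediate early AP-1 and Egr factors are transcription factor genes that growth factor receptors switch on without new protein synthesis, and 10 of them were followed here in hypoxic mouse dendritic cells given stem cell factor (SCF). The genes were chosen by name: the Egr zinc finger genes Egr1, Egr2 and Egr3, the Fos family genes Fos, Fosb and Fosl2, the Jun family genes Jun, Junb and Jund, and Ier2. All 10 were found by symbol on the array, out of 22180 genes with a probe set of a single symbol, and each was read by its brightest probe set.

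The cells were CD11c+ bone marrow-derived dendritic cells (BMdDCs) of wild-type female C57BL/6 mice, grown from marrow for 7 days with GM-CSF in 21% oxygen. Both groups then stayed in hypoxia (2% oxygen) for 2 days, again with 20 ng/ml of GM-CSF. One group then received SCF at 100 ng/ml for 6 hours more and the other stayed in medium, so the control cells were also under hypoxia and also exposed to a growth factor. Cells were prepared anew in each of 4 experiments, named BC, D2, E and I, and each gave 1 array per condition, or 8 Affymetrix arrays in 4 pairs. The values are intensities from RMA, an array summary method, and are given below as log2.

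SCF binds the receptor tyrosine kinase Kit, which activates Ras and the ERK kinases. ERK phosphorylates partners of serum response factor at a DNA element called the CArG box, and early genes such as Egr1 and Fos are then transcribed within minutes. Their transcripts are short-lived and usually fall again within hours of a stimulus. Fos and Jun proteins pair through leucine zippers to form the AP-1 factor, Egr proteins bind GC-rich elements through zinc fingers, and both families carry the signal on to later genes. In myeloid cells Egr1 and Egr2 are also known as regulators of the monocyte and macrophage programme.

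No member of the group passed the test for a change with SCF. Of the 10 genes, 8 were bright enough to be tested (a mean log2 intensity of at least 4.05, the median over all named probe sets), and 0 of 8 passed the threshold of 0.05 on limma's adjusted p, in a model that pairs the arrays by experiment, where 0% of the 12668 probe sets tested were called. At an unadjusted p under 0.05 there was 1 of 8 members, Egr1, where 4.21% of all tested probe sets lay under that value. It was lower with SCF, as were 2.26% of all, while 0 of 8 members and 1.95% of all were higher at that level. The fitted fold changes of the 8 genes lay between 0.862-fold for Egr1 and 1.12-fold for Egr3, and their 95% intervals between 0.75-fold and 1.26-fold. For 8 of 8 members the interval thus lay within 1.5-fold in both directions, as for 99.7% of all tested probe sets. These intervals are of array intensity. Egr1, Egr3 and Fos lay not far above the filter and no background level is known, so for them the intervals do not bound the change in transcript. The median absolute log2 change was 0.066 among the 8 members and 0.048 among all tested probe sets. Differences below are SCF minus medium on the log2 scale, with 95% intervals. These are bulk cultures, in which fewer cells of a type and less RNA per cell cannot be told apart.

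**Figure D1:**
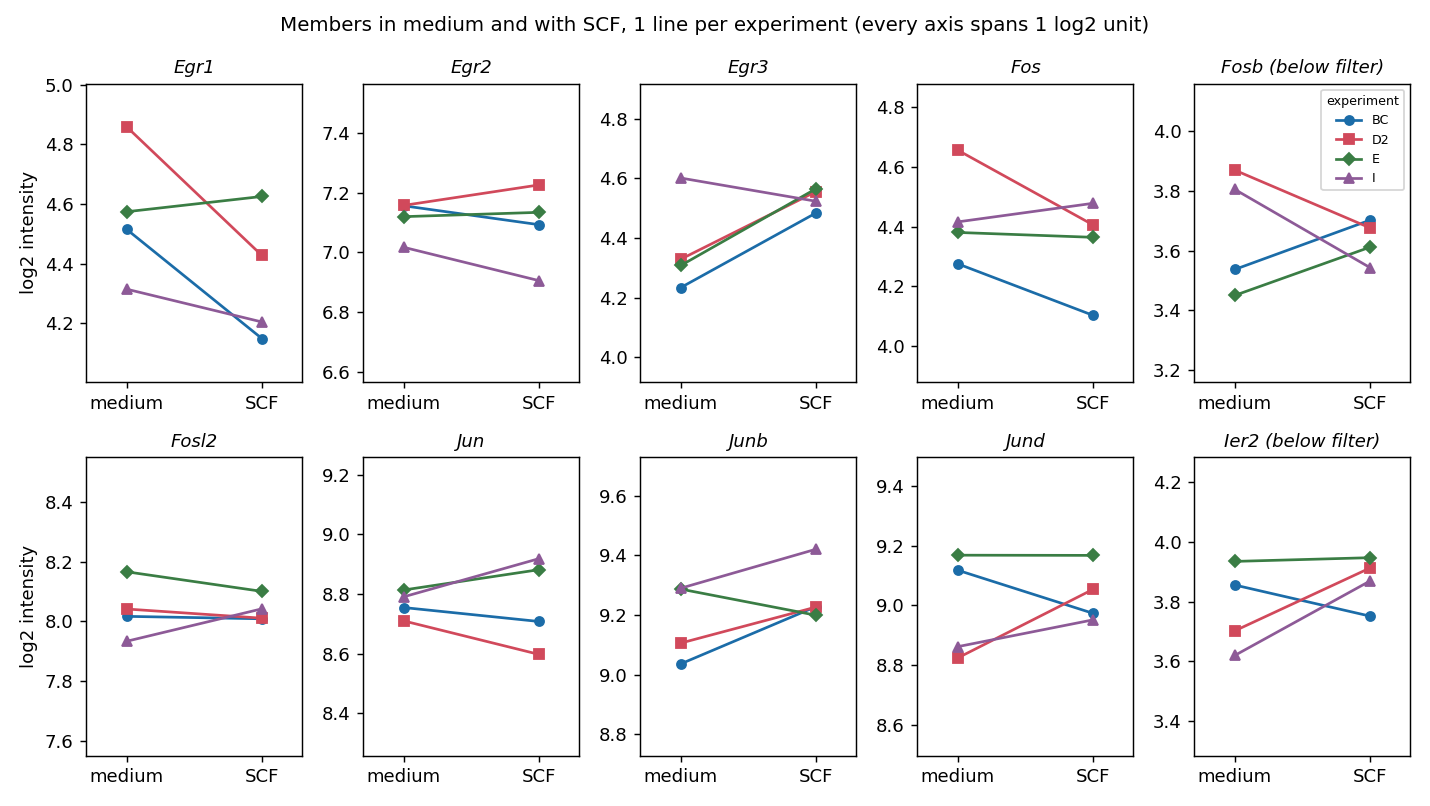
Log2 intensity of the 10 genes (vertical axes, each spanning 1 log2 unit) in medium and with SCF, with 1 line and symbol per experiment. Medium and SCF arrays overlap for 10 of 10 genes. The Egr1 line is steepest downward in D2 (4.86 to 4.43), and the Egr3 lines of BC, D2 and E go up together while that of I goes down.

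Egr1 and Egr3 had the largest fitted differences of the group, with opposite signs. Egr1, the archetypal ERK-induced zinc finger gene, had log2 intensities in medium of 4.51 (BC), 4.86 (D2), 4.57 (E) and 4.31 (I). With SCF they were 4.15 (BC), 4.43 (D2), 4.63 (E) and 4.20 (I). The medium array of D2 was the highest of the 8 and the SCF array of BC the lowest, and the groups overlapped. The fitted difference was −0.21 with an SE of 0.09 (interval −0.42 to −0.012), with a limma unadjusted p of 0.0403 and an adjusted p of 0.945, with 3 of 4 experiments below 0. Leaving out D2 gave −0.14 (limma unadjusted p = 0.168), BC −0.16 (0.147), I −0.25 (0.048) and E, the experiment of opposite sign, −0.30 (0.00893). Of all tested probe sets, 3.18% had a smaller unadjusted p than Egr1.

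Egr3, a paralogue known for its role with Egr2 in lymphocytes, had log2 intensities in medium of 4.23 (BC), 4.33 (D2), 4.31 (E) and 4.60 (I). With SCF they were 4.48 (BC), 4.56 (D2), 4.57 (E) and 4.52 (I). The 4 SCF arrays lay close together, and the 4 medium arrays split into 3 lower ones and the medium array of I, which was the highest of all 8. In the fit the difference was 0.16 with an SE of 0.07 (interval −0.0009 to 0.33), with a limma unadjusted p of 0.051 and an adjusted p of 0.945. Leaving out I, the experiment of opposite sign, gave 0.24 (limma unadjusted p = 0.00578, adjusted p = 0.832). Leaving out BC gave 0.14 (limma unadjusted p = 0.156), D2 0.14 (0.145) and E 0.13 (0.167). Both probe sets were dim, with means over the 8 arrays of 4.46 for Egr1 and 4.45 for Egr3, not far above the filter. Whether their changes differ from each other was not tested.

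Egr2, which drives myelin genes in Schwann cells and is also made by macrophages, had similar values in both conditions. In medium it measured 7.16 (BC), 7.16 (D2), 7.12 (E) and 7.02 (I), and with SCF 7.09, 7.23, 7.13 and 6.91 in the same order. Both arrays of experiment I were the lowest, and the conditions interleaved. The fitted difference was −0.02 with an SE of 0.05 (interval −0.15 to 0.10), limma gave an adjusted p of 0.980, and 2 experiments lay above 0 and 2 below. Egr2 is shown with its sequence because, of the 7 members whose promoter windows (RefSeq on GRCm38.p6) were searched, only Egr2 had CArG boxes. No window of Egr1, Egr3 or Ier2 was searched, and neither were bases farther upstream, so boxes there could not be seen. The member search also skipped a chromosome, so a member's window there would not have been read. A CArG box lay within 250 bases before 4 of the 5 listed Egr2 starts, at 2 distinct sites. Of 32851 promoter windows of the same length, 1.47% held one. The Egr2 sites are chr10:67537484-67537513 and chr10:67537787-67537816, both on the plus strand, printed with the box in capitals.

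Egr2 upstream site: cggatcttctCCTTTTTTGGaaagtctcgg

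Egr2 downstream site: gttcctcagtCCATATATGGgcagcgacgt

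Of the Fos family, Fos itself had 3 of 4 experiments below 0 and did not pass the test. As the partner of Jun in classical AP-1, it measured 4.28 (BC), 4.66 (D2), 4.38 (E) and 4.42 (I) in medium. With SCF it measured 4.10 (BC), 4.41 (D2), 4.36 (E) and 4.48 (I). As for Egr1, the highest of the 8 arrays was the medium array of D2 and the lowest the SCF array of BC. In the fit the difference was −0.09 with an SE of 0.07 (interval −0.25 to 0.06), and limma gave an adjusted p of 0.945. Without D2 it was −0.04, and without I it was −0.15. The Fos probe set was also dim, with a mean over the 8 arrays of 4.38, not far above the filter. That mean was lower than those of Egr1 and Egr3.

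Fosl2, which encodes the longer-lived AP-1 subunit Fra-2, had the smallest fitted difference of the 8. It measured 8.02 (BC), 8.04 (D2), 8.17 (E) and 7.93 (I) in medium, and 8.01, 8.01, 8.10 and 8.04 with SCF. The fitted difference was 0.0011 with an SE of 0.05 (interval −0.12 to 0.13), and limma gave an adjusted p of 0.999. Its SE was also small, since only 22.2% of tested probe sets had a smaller one. Under another scaling of the arrays its sign turned, to −0.018 with the array medians equalized.

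Fosb, an AP-1 subunit best known from neurons, lay below the intensity filter and was not tested. It measured 3.54 (BC), 3.87 (D2), 3.45 (E) and 3.81 (I) in medium, and 3.70, 3.68, 3.61 and 3.54 with SCF. The difference was −0.03 ± 0.23 (SD, n = 4 experiments), above 0 in 2 and below in 2. It was −0.10 without BC or without E and turned to 0.02 without D2 and 0.04 without I. The array table has no background level, so whether Fosb was expressed in these cells cannot be read from it.

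Promoters are shown for Fos and Fosb because they carry the kinds of elements through which kinase signals and Egr factors are known to act on this family. They are the 250 bases before the start, from RefSeq on GRCm38.p6, at chr12:85473640-85473889 on the plus strand for Fos and chr7:19310046-19310295 on the minus strand for Fosb. Capitals mark the cAMP response element core (TGACG, searched on both strands), the TATA box (TATAAA, searched on the gene's strand in Fos) and the Egr element (GCGGGGGCG or GCGTGGGCG, searched on both strands in Fosb). Of 32851 windows of this length, 17.8% held the first, 7.59% the second and 3.06% the third.

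Fos promoter: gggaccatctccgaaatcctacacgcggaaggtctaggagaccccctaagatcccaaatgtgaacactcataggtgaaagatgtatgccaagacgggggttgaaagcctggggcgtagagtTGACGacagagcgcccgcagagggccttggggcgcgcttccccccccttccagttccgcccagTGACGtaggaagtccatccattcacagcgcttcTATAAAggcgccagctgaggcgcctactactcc

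Fosb promoter: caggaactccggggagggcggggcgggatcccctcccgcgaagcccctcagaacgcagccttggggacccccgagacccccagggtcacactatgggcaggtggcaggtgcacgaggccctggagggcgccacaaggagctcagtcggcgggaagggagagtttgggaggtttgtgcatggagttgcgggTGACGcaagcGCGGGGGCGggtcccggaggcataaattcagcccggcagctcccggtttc

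In Fos, the TGACG cores began 129 and 66 bases before the start and the TATA box 33 bases before it. In Fosb, the core began 60 bases and the Egr element 50 bases before the start, and no position of one overlapped the other. The Egr element was also found 79 bases before the start of Fosl2, and the TGACG core 106 bases before that of Junb. In 3 of the 5 Egr2 windows the core was found on both strands, 111 and 55 bases before the start in one of them. The AP-1 element itself (TGACTCA or TGAGTCA) was found in 4.46% of windows and in none of the 11 windows of the 7 members searched. Those members are Jun, Junb, Jund, Fos, Fosb, Fosl2 and Egr2. These matches describe the letters of the windows and say nothing of binding in these cells.

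The 3 Jun family genes had fitted differences above 0, none past the test, with a median of 0.04, though that of Jun was below 0 with the array medians equalized. Jun, the Fos partner that JNK phosphorylates, measured 8.75 (BC), 8.71 (D2), 8.81 (E) and 8.79 (I) in medium. With SCF it measured 8.71 (BC), 8.60 (D2), 8.88 (E) and 8.92 (I). The SCF arrays were more spread than the medium arrays, with BC and D2 below and E and I above their own medium arrays. In the fit the difference was 0.0092 with an SE of 0.06 (interval −0.13 to 0.15), and limma gave an adjusted p of 0.996. With the array medians equalized the difference was −0.0100.

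Junb, a subunit that often restrains Jun and is abundant in myeloid cells, measured 9.04 (BC), 9.11 (D2), 9.29 (E) and 9.29 (I) in medium. With SCF it measured 9.23 (BC), 9.23 (D2), 9.20 (E) and 9.42 (I). It was higher with SCF in 3 of 4 experiments, and both its highest values were in experiment I. The fitted difference was 0.09 with an SE of 0.06 (interval −0.06 to 0.23), and limma gave an adjusted p of 0.945. Without E it was 0.15 and without BC 0.05.

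Jund, the most constitutive Jun gene, was the member with more than 1 probe set. The brighter one measured 9.12 (BC), 8.82 (D2), 9.17 (E) and 8.86 (I) in medium, and 8.97, 9.05, 9.17 and 8.95 with SCF. In the fit the difference was 0.04 with an SE of 0.07 (interval −0.12 to 0.21), and limma gave an adjusted p of 0.968. Without D2 the difference was −0.02 and without BC 0.11. The dimmer probe set, at a mean of 5.07, gave 0.06 (SE 0.10, limma adjusted p = 0.971). Within D2 the probe sets disagreed, at 0.23 for the brighter and −0.30 for the dimmer.

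Ier2, an immediate early gene of a family apart from AP-1 and Egr, lay below the filter. It measured 3.86 (BC), 3.70 (D2), 3.93 (E) and 3.62 (I) in medium, and 3.75, 3.91, 3.95 and 3.87 with SCF. The difference was 0.09 ± 0.17 (SD, n = 4 experiments), with 3 of 4 experiments above 0. D2 (0.21) and I (0.25) had the largest differences, and BC (−0.10) was the experiment below 0. The difference was 0.16 without BC, 0.05 without D2 and 0.04 without I.

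**Figure D2:**
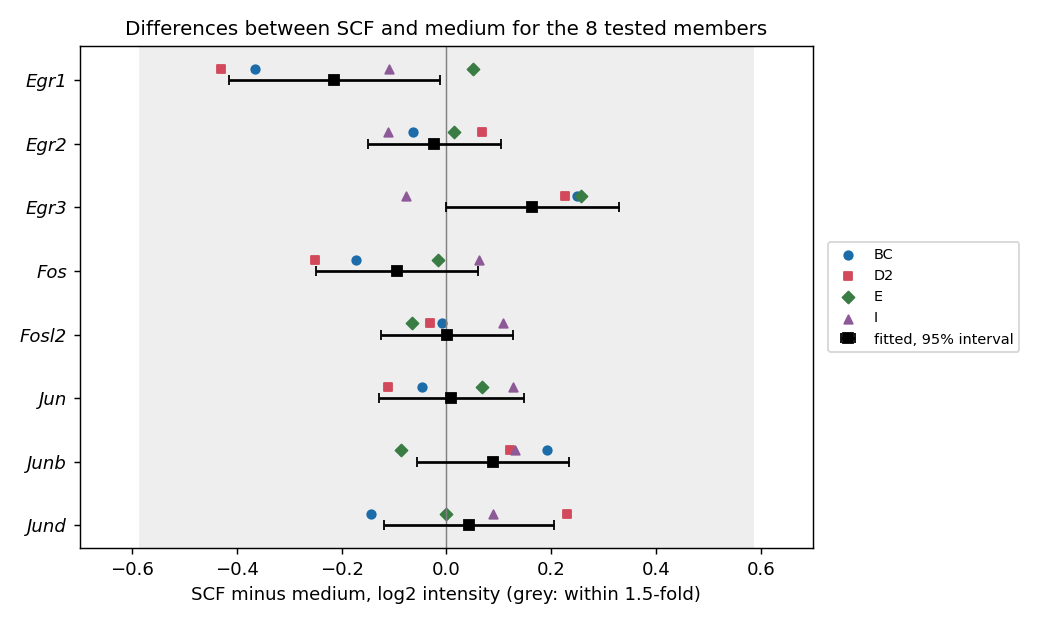
SCF minus medium in log2 intensity (horizontal axis) for the 8 tested genes. Black squares and bars are the fitted change and its 95% interval, coloured symbols the difference in each experiment, and the grey band marks changes within 1.5-fold. Every interval lies inside the band, and each gene has experiments on both sides of 0.

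No member had its 4 experiments on 1 side of 0. A single sign across the 4 experiments was seen for 0 of 8 tested members and for 12.9% of tested probe sets, and 0 of 8 had groups that did not overlap, against 0.971% of all. Exact sign-flip permutation of the 4 paired differences, two-sided, gave p between 0.25 and 1.00 over the 10 genes, and 4 pairs cannot go below 0.125. In BC, Egr1 (−0.37) and Fos (−0.17) lay below 0 and Egr3 (0.25) and Junb (0.19) above. D2 showed the same 4 signs, with −0.43, −0.25, 0.23 and 0.12. In I the signs of Fos (0.06) and Egr3 (−0.08) were the opposite, and in E those of Egr1 (0.05) and Junb (−0.09). With 1 array per experiment and condition, these differences between experiments cannot be tested.

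No member passed the test for a difference in level between experiments. The test is limma's F over the experiments with SCF in the model, which called 424 of the 12668 probe sets (3.35%) and 0 of 8 members. The count over all probe sets was 38 when E was left out, 110 when D2 was, 148 when BC was and 177 when I was. Unadjusted p-values under 0.05 belonged to 2 of 8 members, Egr1 and Fos, against 24.2% of all tested probe sets. Averaged over both conditions, Egr1 stood at 4.64 in D2, 4.60 in E, 4.33 in BC and 4.26 in I (limma F, unadjusted p = 0.0353, adjusted p = 0.175). Fos stood at 4.53 in D2, 4.45 in I, 4.37 in E and 4.19 in BC (limma F, unadjusted p = 0.0363, adjusted p = 0.178). The remaining adjusted p-values lay between 0.264 for Egr2 and 0.515 for Egr3. The highest of the 8 arrays was the medium array of D2 for 2 of 8 tested members (Egr1 and Fos) and for 16.7% of tested probe sets, and the lowest was the SCF array of BC for the same 2 members and for 14.9%. Fosb, which was not tested, was also highest on the medium array of D2. This was noticed after the values were seen. The median range between experiment means was 0.23 among the 8 members and 0.20 among all tested probe sets.

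**Figure D3:**
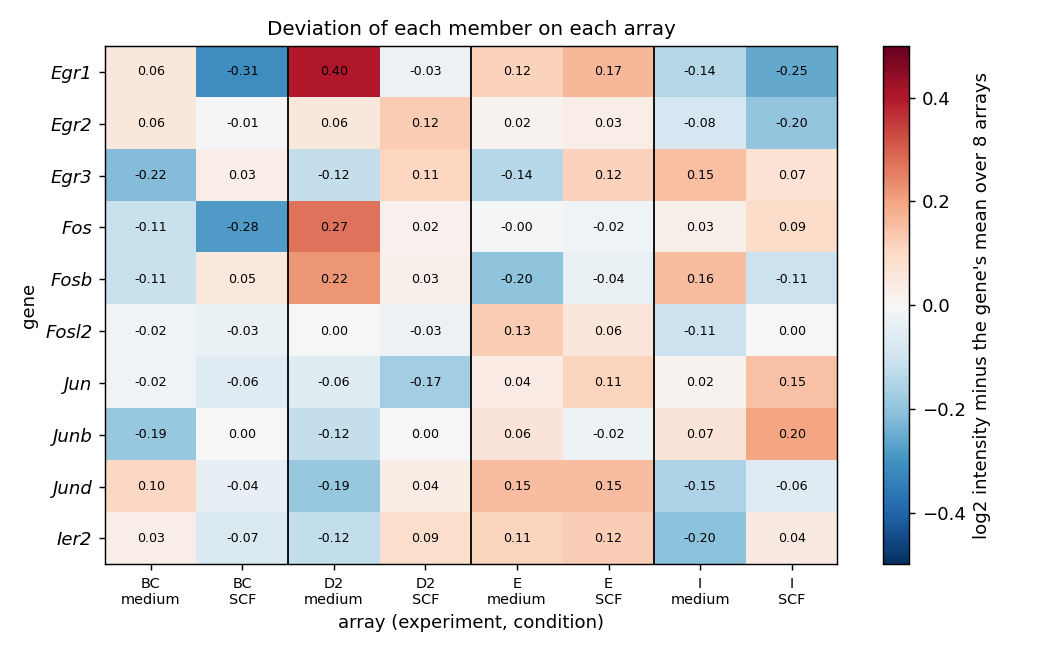
Deviation of each gene's log2 intensity from its own mean over the 8 arrays, as numbers and colour (red above, blue below), for arrays ordered by experiment. The largest values are those of Egr1 (0.40) and Fos (0.27) on the medium array of D2 and of Egr1 (−0.31) and Fos (−0.28) on the SCF array of BC.

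Genes whose profile over the 8 arrays was most like that of a member were found by Pearson's r of the log2 values among the tested genes outside the group. For Egr1 they were Spcs3 (r = 0.984) and Naa15 (0.977), for Egr2 Nsdhl (0.982) and Rnu3a (0.965), and for Egr3 Acap3 (0.942) and Prap1 (0.941). For Fos they were Caprin1 (0.955) and Aplf (0.951), and for Fosl2 Pak2 (0.944) and Wdfy2 (0.937). For Jun they were Irf2 (0.968) and Iqgap1 (0.942), for Junb Kmt2d (0.978) and Kmt2c (0.952), and for Jund Lmna (0.988) and Dgkz (0.988). The 8 arrays come from 4 experiments and are not independent, and each r is among the highest of all genes compared, so these are descriptions of the profiles.

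Related genes were read from lists made for this group, of which 88 of 106 genes were tested, 6 were too dim and 12 had no probe set named for them alone. None passed the adjusted threshold in limma (0 of 88), and 3 had an unadjusted p under 0.05, 1 higher and 2 lower. Of all tested probe sets, 50.5% were above 0, with a median log2 fold change of 0.00077. The other Fos, Jun, ATF, BATF and MAF factors had 4 of 12 tested genes above 0 and a median of −0.02. Their smallest p-values belonged to Maff, a small MAF gene, at 0.10 (SE 0.06), Jdp2, a repressor of AP-1, at −0.12 (SE 0.08), and Nfe2l2, the gene of Nrf2, at −0.10 (SE 0.07). Without D2 Maff was at 0.05, without I Jdp2 was at −0.06 (−0.08 without BC), and Nfe2l2 was at −0.03 without BC and −0.14 without E. The Jdp2 probe set was dim, with means of 4.14 in medium and 4.02 with SCF, near the filter of 4.05. The Nab genes, whose products restrain Egr factors, were at 0.0079 (SE 0.08) for Nab1 and −0.05 (SE 0.06) for Nab2, while Egr4 lay below the filter. With 1 experiment left out Nab1 ranged from −0.08 to 0.05 and Nab2 from −0.08 to −0.02. The serum response and CREB factors that act on early gene promoters had 4 of 11 above 0 and a median of −0.01. They were led by the SRF coactivator genes Mrtfb at 0.07 (SE 0.06) and Mrtfa at 0.04 (SE 0.05) and by Mef2c at −0.05 (SE 0.06). With 1 experiment left out Mrtfb ranged from 0.02 to 0.11, Mrtfa from 0.02 to 0.06 and Mef2c from −0.08 to 0.0049.

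Other immediate early genes, such as those of the Nr4a, Klf and Zfp36 families, had 10 of 32 tested genes above 0, against 50.5% of all tested probe sets. The median of this list was −0.02. Arc, an activity-induced gene best known from synapses, had the smallest p of this list. In medium Arc measured 8.75 (BC), 8.36 (D2), 8.58 (E) and 8.82 (I), and with SCF 8.97, 8.47, 8.66 and 9.02. The SCF array was higher in 4 of 4 experiments, by 0.08 to 0.22, where 12.9% of tested probe sets had a single sign. The groups overlapped. The fitted difference was 0.15 with an SE of 0.05 (interval 0.03 to 0.28, limma unadjusted p = 0.0206, adjusted p = 0.945). Next came Zfp36l2, which marks mRNAs for decay, at −0.15 (SE 0.07) and the kinase gene Plk3 at −0.15 (SE 0.07). Without BC these were −0.07 for Zfp36l2 and −0.08 for Plk3. Between experiments, 3 of 32 genes of this list passed limma's F test, against 3.35% of all tested probe sets: Myc (adjusted p = 0.0412), Klf4 (0.0381) and Arc (0.0376). With any 1 experiment left out, 0 of these 3 passed, with limma F adjusted p-values between 0.0581 and 0.175. Arc was highest in I (8.92) and lowest in D2 (8.42), whereas Myc was highest in E (6.85) and lowest in I (6.34), and Klf4 was highest in E (5.81) and lowest in BC (5.31).

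Genes of the MAP kinase cascade upstream had 5 of 14 above 0, against 50.5% of all tested probe sets, and a median of −0.02. The leading ones were the JNK gene Mapk9 at −0.11 (SE 0.05), the MEK gene Map2k1 at −0.06 (SE 0.06) and the JNK kinase gene Map2k4 at −0.06 (SE 0.07). With 1 experiment left out Mapk9 ranged from −0.13 to −0.09, Map2k1 from −0.09 to −0.0100 and Map2k4 from −0.12 to −0.0009. Textbook AP-1 and Egr target genes had 4 of 17 above 0, against 50.5% of all tested probe sets. The median of this list was −0.06, or −0.08 with the array medians equalized. Among them Mmp9, a gelatinase gene, was at −0.19 (SE 0.06, limma unadjusted p = 0.0167, adjusted p = 0.945). It was lower in 4 of 4 experiments, where 12.9% of tested probe sets had a single sign. Its levels were 4.38 ± 0.04 (SD, n = 4) in medium and 4.19 ± 0.14 with SCF. The Mmp9 probe set was thus dim, and its SCF array of D2 (3.99) lay below the filter of 4.05. F3, the tissue factor gene and a known Egr1 target, was at −0.22 (SE 0.09, limma unadjusted p = 0.0443, adjusted p = 0.945), with −0.57 in BC against −0.06 to −0.13 elsewhere. Without BC it was −0.10 (limma unadjusted p = 0.151), and Mmp9 without D2 was −0.13 (0.0649). Tgfb1 was at −0.11 (SE 0.05). Between experiments 2 of 17 target genes passed limma's F test, against 3.35% of all, the collagenase gene Mmp13 (adjusted p = 0.0202) and the cyclin D1 gene Ccnd1 (0.0290). Each kept its call with 1 of the 4 experiments left out, Mmp13 without BC and Ccnd1 without I.

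**Figure D4:**
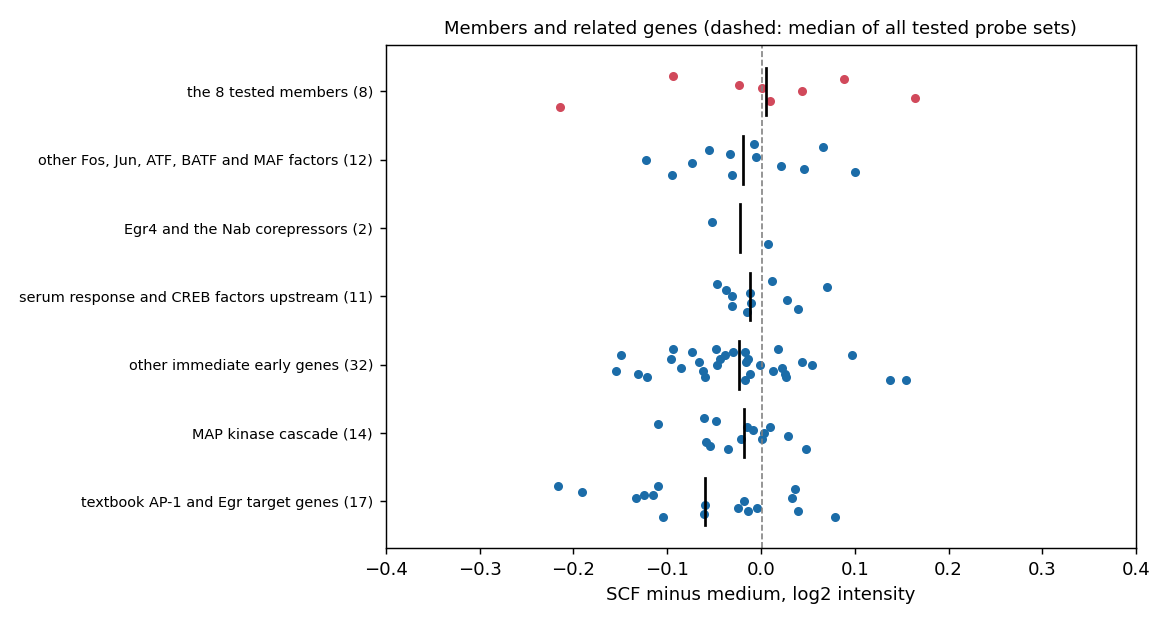
Fitted SCF minus medium difference in log2 intensity (horizontal axis) of the 8 tested members (red) and of the tested genes of 6 related lists (blue), with the number tested in brackets. Black bars are list medians and the dashed line is the median of all tested probe sets. All list medians lie between −0.06 and 0.0052.

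The labelled cell type was checked on markers. Of 7 dendritic cell markers on the array 7 lay above the intensity filter, among them Itgax (CD11c) at 10.08 ± 0.12 (SD, n = 4) in medium and H2-Ab1 at 10.99 ± 0.03, and 9 of 9 monocyte and macrophage markers did too. The summed linear intensity of the dendritic cell markers lay between 5892 and 6153 in medium and between 6011 and 6197 with SCF, and that of the monocyte and macrophage markers between 3805 and 4804 and between 3604 and 4550. Of the dendritic cell markers 6 of 7 were above 0 with SCF, with a median difference of 0.04, where 50.5% of all tested probe sets were above 0. Of the monocyte and macrophage markers 8 of 9 were below 0, with a median of −0.05. Mertk was at −0.20 (SE 0.07, limma unadjusted p = 0.0269, adjusted p = 0.945), or −0.12 without BC. Between experiments 3 of these 9 markers passed limma's F test, against 3.35% of all: Cd14 (adjusted p = 0.0124), Fcgr1 (0.0360) and C1qb (0.0428), each highest in E. With 1 experiment left out Cd14 passed in 3 of 4 cases, Fcgr1 in 2 and C1qb in 1. The part of these markers in the Egr1 and Fos values was not tested. Above the filter were also 1 of 8 neutrophil markers, 3 of 8 mast cell and basophil markers (Kit, Cpa3 and Gata2), 1 of 4 B cell markers and 0 of 5 T and NK cell markers. Summed levels in medium and with SCF were 90.6 to 96.5 and 93.3 to 104 for the neutrophil markers, and 181 to 239.8 and 174 to 233 for the mast cell and basophil markers. For B cell markers they were 45.6 to 54.7 and 47.0 to 50.1, and for T and NK cell markers 50.9 to 58.1 and 49.9 to 57.7. Kit, the receptor for SCF, was at 6.74 ± 0.24 in medium and 6.71 ± 0.26 with SCF, and its level differed between experiments (limma F, adjusted p = 0.0412), from 6.41 in D2 to 6.96 in I, with 6.65 in E and 6.88 in BC. The mast cell protease gene Cpa3 also differed (limma F, adjusted p = 0.0333), at 4.01 in D2, 4.34 in E, 4.82 in I and 5.02 in BC. Kit and Cpa3 were thus both lowest in D2 and higher in BC and I, though Cpa3 in D2 lay under the filter of 4.05. Gata2 did not pass (limma F, adjusted p = 0.0908) and had another order, at 4.94 in I, 5.04 in D2, 5.18 in E and 5.35 in BC. The other markers of this list lay below the filter. With 1 experiment left out Kit passed in 0 of 4 cases and Cpa3 in 1. Whether mast cell content moved the Kit level was not tested. Of 7 heat shock genes, which respond to handling stress, 5 were tested and had a median of 0.0032. The SCF array of I was the highest for 4 of 7, and there the difference was 0.60 for Hspa1b, 0.44 for Hsph1, 0.31 for Hspa1a and 0.30 for Dnajb1, of which Hspa1a and Hspa1b lay below the filter. That of Hspb1 in I was −0.01, and that of Hsph1 in D2 was −0.20. The SCF array of I was also the highest for Jun and Junb. How many of all tested probe sets were highest on it was not counted, and the part of handling in those values was not tested.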

How the data were processed

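RNA of 8 cultures, 4 medium and 4 SCF, was read on 1 array each. The authors summarised each probe set with RMA, per the submitters' processing notes, and deposited the intensity. The RMA version is not given in the sources used here. These intensities are linear, with maxima between 3588 and 4252, so log2 was taken, with no pseudocount. Signal over background cannot be read from the table, and the number of arrays limits the precision.

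Of 41345 probe sets, 23521 had 1 symbol in the platform annotation, 1814 several and 16010 none. Probe sets with a symbol were tested where their mean log2 intensity reached the median of such means, 4.05, which left 12668. A gene was read by its brightest probe set. SCF was compared with medium in limma 3.58.1 (R 4.3.3), in a two-sided test with a term for each experiment, and p-values were adjusted by Benjamini-Hochberg over every probe set tested. Residual degrees of freedom were 3 (7.39 in total after moderation). The fit was tested on simulated data. Arrays pair by experiment because the series' design text says each experiment's cells were made together. Deviations from the group means correlated at 0.36 to 0.46 within experiments.

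The members and lists were chosen with earlier results of these data known. Named from each of the 6 related lists were up to 3 genes with the smallest p, every gene past the threshold where 5 or fewer passed, up to 3 with the largest range past the threshold between experiments, and the 2 genes most like each member. Markers are given by counts and summed levels, and single marker genes were named after their values were seen, as was leaving out experiments for the named list and marker genes. Alternatives covered the block, probe sets, scaling, an offset of 16, the filter, the variance model and leaving out each experiment.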

Additional observations from a re-analysis of the deposited data

Results flagged for a closer look

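Junb stood at 9.42 on the SCF array of experiment I, far above the other SCF arrays, which lay between 9.20 and 9.23. Of 20 groups of 4 arrays examined over the 10 genes, this was the 1 group with such a gap, and chance alone gives about 1 in 20. The same array was the highest of the 8 for 4 of 7 heat shock genes, of which Hspa1a and Hspa1b lay below the filter. Hsph1 was 0.44 above its medium array. How many of all tested probe sets were highest on this array was not counted, and the part of handling in the Junb value was not tested.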

How the results depend on the processing

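No member passed the adjusted threshold between SCF and medium under any alternative tried. In the fit with no replicate block 0 probe sets and 0 members were called, and with the experiments paired as a random replicate block also 0 and 0. At an unadjusted p under 0.05 the fit with no replicate block had 125 probe sets against 533 with it. The smallest adjusted p of a member over all alternatives was 0.729, for Junb with the stricter filter. The signs of Egr1, Egr3, Fos and Junb were kept in every alternative that tested them (the stricter filter left out Egr1, Egr3 and Fos), with log2 fold changes between −0.30 and −0.12 for Egr1, 0.09 and 0.24 for Egr3, −0.15 and −0.04 for Fos, and 0.05 and 0.15 for Junb. The sign of Fosl2 turned to −0.018 with the array medians equalized and −0.0027 after repeated quantile normalization, and ranged from −0.035 to 0.023 when 1 experiment was left out. Jun turned to −0.0100 with the medians equalized and ranged from −0.030 to 0.050 without 1 experiment. On leaving out 1 experiment Egr2 ranged from −0.053 to 0.0066 (above 0 without I) and Jund from −0.018 to 0.106 (below 0 without D2), while Fosb, not tested, ranged from −0.10 to 0.04. Equalizing the medians moved the median of all tested probe sets from 0.00077 to −0.018. Between experiments 0 members were called under every alternative, but the count of probe sets was 1210 with the offset of 16, 194 without a filter, 1396 with the stricter filter, 1527 with an intensity trend and 38 to 177 without 1 experiment. The cause was not tested.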

Other observations

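The medium array of D2, on which Egr1, Fos and Fosb were highest, was the highest for 16.7% of all tested probe sets. It was so for 3 of 32 tested other immediate early genes, 3 of 17 AP-1 and Egr target genes, 2 of 14 MAP kinase cascade genes, 1 of 12 other Fos, Jun, ATF, BATF and MAF genes and 1 of 11 serum response and CREB genes. It was so for 0 of 2 Nab genes and 0 of 5 tested heat shock genes.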
